A study of Mus musculus with 15 samples.

Results

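The genes described here are 37 mouse genes of the interferon response and of antigen presentation, taken as a fixed list of symbols out of the 46078 genes in the batch 1 count table. All 37 had at least 1 count in batch 1, and 31 of them passed the filter on low counts there. The batch 2 table listed 30 of the 37, and all 30 passed. They were measured by RNA sequencing in cultured muscle satellite cells, the stem cells of skeletal muscle, obtained from mouse hindlimb and grown in F10 medium with horse serum. The 5 groups of 3 libraries each were treated for 24 hours. In batch 1 these were 0.05 mM adenosine and its DMSO control, and in batch 2 they were 0.1 mM adenosine, 0.25 mM AMP (adenosine monophosphate, the nucleoside with a phosphate) and their DMSO control. The labels give the strain C57BL/6J for batch 2 and no strain for batch 1, and name no engineered allele. Dose and batch changed together between the adenosine groups, and AMP and adenosine were given at different doses. Whether the 3 libraries of a group are from different animals or dishes is not in the labels, and the p-values therefore cover only the spread between libraries, which may be technical.

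Interferons are secreted proteins that bind receptors linked to Janus kinases, which phosphorylate transcription factors of the STAT family. STAT2 and IRF9 are part of a complex that binds the interferon-stimulated response element (ISRE) in promoters, whereas STAT dimers bind the gamma-activated site (GAS). The genes switched on this way include sensors of viral RNA, antiviral effectors, guanylate-binding proteins and the machinery that shows peptides on MHC class I, and IRF1 can act on many of the same promoters.

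RefSeq promoters (GRCm38.p6) were found for 28 of the 37 genes, and those with motif matches at genes the results turn on are shown. Capitals mark matches to the ISRE core (GAAA, any 2 bases, GAAA) or the GAS core (TTC, any 3 bases, GAA) on either strand in the sequence before the RefSeq start, read 5′ to 3′ on the gene's strand.
Isg15, chr4:156200819-156200968, minus strand: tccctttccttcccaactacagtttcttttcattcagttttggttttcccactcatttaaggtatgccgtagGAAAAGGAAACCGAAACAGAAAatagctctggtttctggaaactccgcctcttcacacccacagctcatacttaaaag
Gbp3, chr3:142559894-142560025, plus strand: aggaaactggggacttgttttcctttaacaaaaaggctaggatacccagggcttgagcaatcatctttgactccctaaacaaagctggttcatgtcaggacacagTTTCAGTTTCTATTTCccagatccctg
Gbp7, chr3:142530186-142530335, plus strand: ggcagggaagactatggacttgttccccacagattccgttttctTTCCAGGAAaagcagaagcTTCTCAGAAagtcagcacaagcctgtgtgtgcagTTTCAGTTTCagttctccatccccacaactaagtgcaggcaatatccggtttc
B2m, chr2:122147537-122147685, plus strand: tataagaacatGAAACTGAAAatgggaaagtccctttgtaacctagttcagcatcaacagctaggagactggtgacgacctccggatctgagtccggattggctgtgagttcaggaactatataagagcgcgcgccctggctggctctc
Bst2, chr8:71537473-71537622, minus strand: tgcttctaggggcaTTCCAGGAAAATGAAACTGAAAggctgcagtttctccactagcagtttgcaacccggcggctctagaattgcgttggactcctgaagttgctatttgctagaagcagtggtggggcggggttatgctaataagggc
In Isg15 the run holds 3 overlapping ISRE matches, and in Gbp3 it holds 2. Gbp7 has 1 ISRE match and 2 GAS matches that do not overlap it. In Bst2 a GAS match overlaps the first of 2 overlapping ISRE matches.

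The ISRE core lay within 250 bases before the start in 11 of the 28 promoters (39.3%), against 3.05% of 27025 RefSeq promoters of the same length. The GAS core lay in 6 of 28 (21.4%), against 7.14% of all promoters, and either motif lay in 14 of 28 (50%), against 9.79%. Besides the promoters printed, the ISRE core was matched in Gbp2, Rsad2, Stat2, Ifit1, Ifit3 and Oas1a, and the GAS core in Irf1, Ifit2, Eif2ak2 and Oas1a. No match lay in the windows of H2-K1, H2-D1, Tap1, Irf7, Irf9, Ifi35, Xaf1, Ddx58, Ifih1, Trim25, Oasl2, Cmpk2, Ifi44 or Dtx3l. Only the most upstream RefSeq start of each gene was scanned, for exact matches to the cores, and other starts were not examined. A match describes the letters of the window and not a bound factor.

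**Figure D1:**
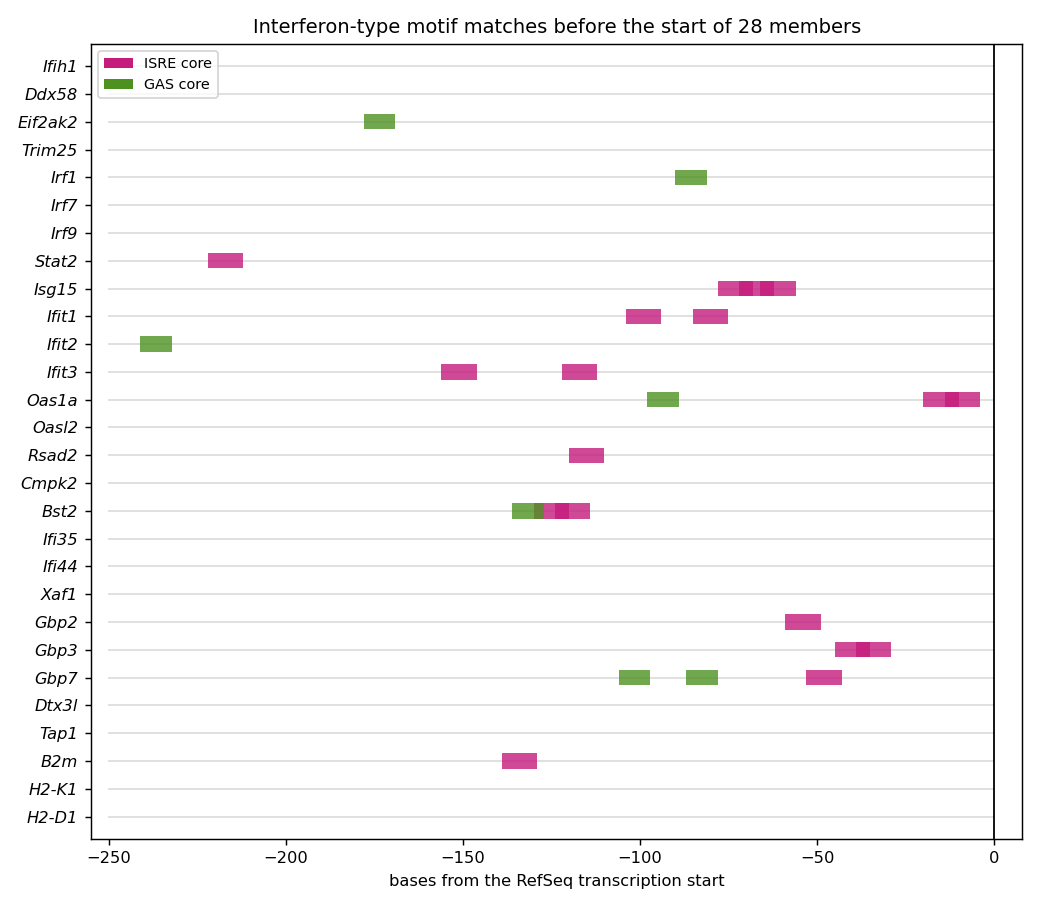
Position of each motif match in bases from the RefSeq start, for the 28 genes with a promoter sequence. Matches to the ISRE core are in 11 promoters and matches to the GAS core in 6, and 14 promoters have either.

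More genes of the list were called higher than lower in each comparison with DMSO. With 0.05 mM adenosine in batch 1, 14 of 31 rose, 2 fell and 15 were not called, against 39.2% of all 13842 tested genes called (19.6% higher and 19.5% lower). With 0.1 mM adenosine in batch 2, 23 of 30 rose, 2 fell and 5 were not called, against 69.4% of 13063 genes called (34.9% higher and 34.5% lower). With 0.25 mM AMP, 22 of 30 rose, 2 fell and 6 were not called, against 65.6% called (33.7% higher and 31.8% lower). A gene rose or fell here if its adjusted p was under 0.05 in edgeR's quasi-likelihood test, with Benjamini-Hochberg adjustment over all tested genes.

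The median log2 fold change of the tested genes of the list was 0.67 in batch 1, 1.42 with adenosine in batch 2 and 1.17 with AMP, while the median of all tested genes was 0.03, 0.01 and 0.01. With library totals in place of TMM scaling the medians of all genes moved to 0.22, 0.32 and 0.28, and those of the list to 0.88, 1.73 and 1.44. The adenosine and AMP comparisons of batch 2 share their DMSO libraries. Libraries of the 2 groups did not overlap, with the treated ones higher, for 17 of 31 genes in batch 1 (35.7% of all tested genes), 27 of 30 with adenosine in batch 2 (50.3%) and 26 of 30 with AMP (48.4%). They did not overlap in the lower direction for 2 genes in batch 1 (17.9% of all), 1 with adenosine in batch 2 (24.3%) and 1 with AMP (22.3%). RNA from bulk cultures cannot tell fewer cells of a type apart from less RNA per cell.

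**Figure D2:**
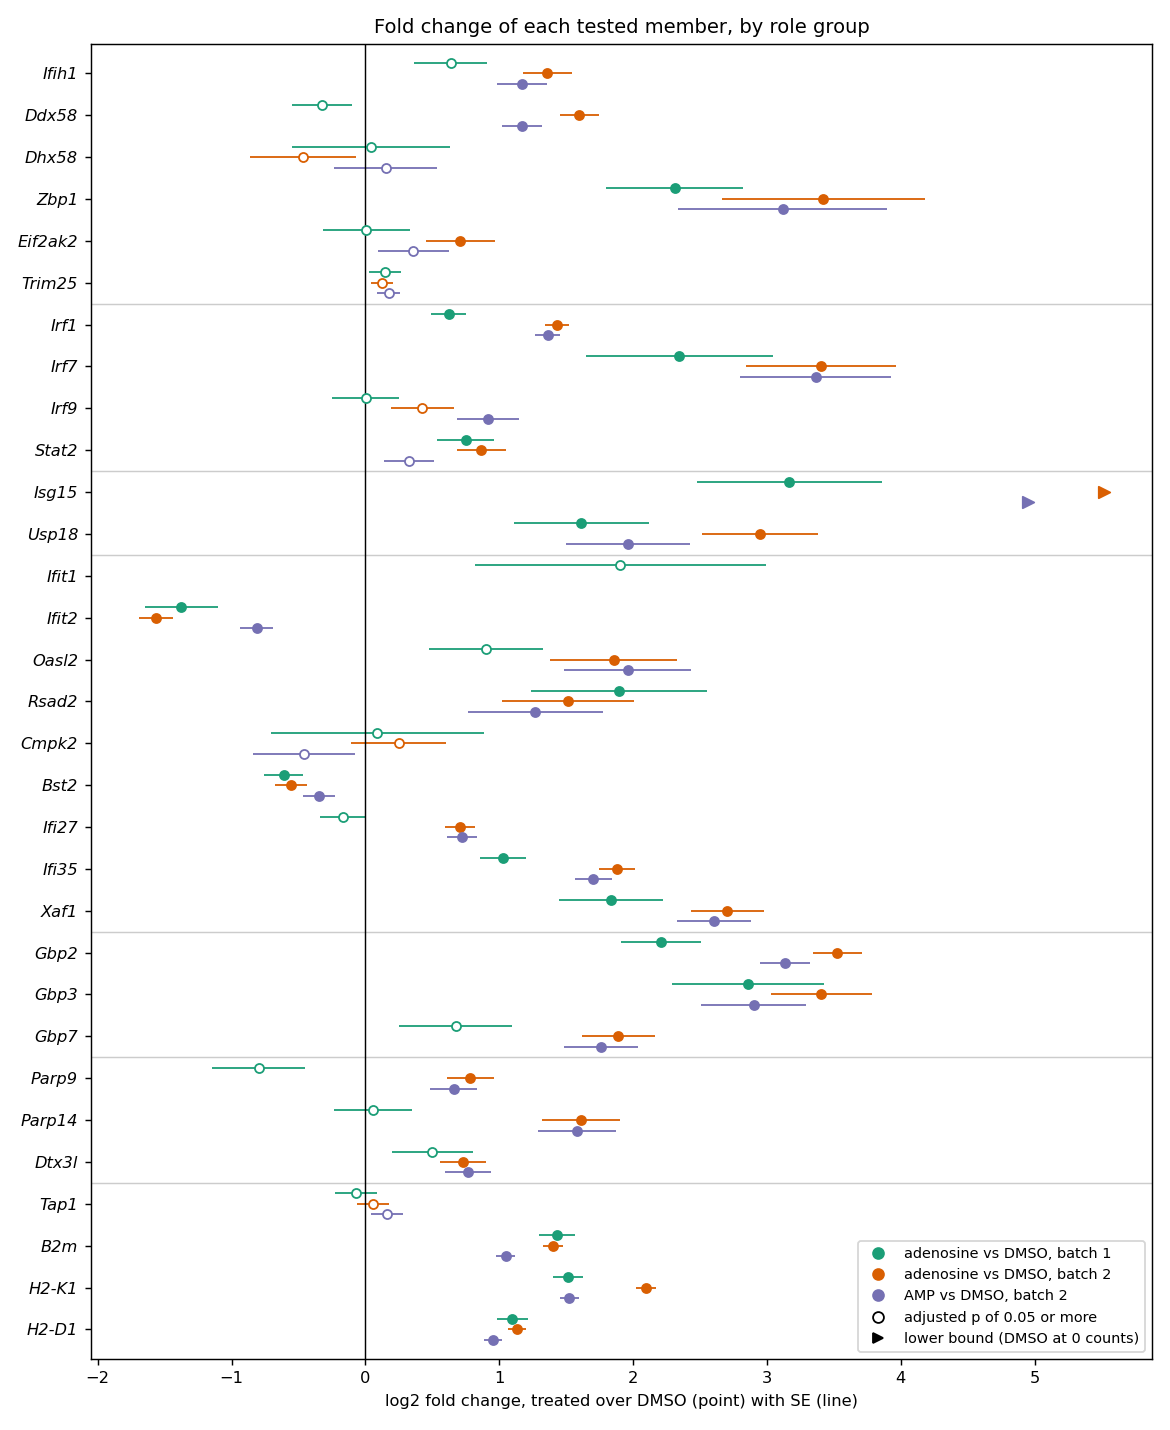
Log2 fold change over DMSO (point) with its standard error (line) for every tested gene of the list, grouped by role, with open points where the adjusted p was 0.05 or more. Isg15 in batch 2 is drawn as a lower bound because its DMSO libraries held 0 counts; Ifit2 and Bst2 are the only filled points left of 0.

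The genes for the MHC class I molecule showed the highest levels of the list and rose in every comparison with DMSO, while the peptide transporter gene Tap1 was not called in any. H2-K1 and H2-D1 code for the class I heavy chains that hold peptides at the cell surface, B2m codes for the light chain beta-2 microglobulin, and TAP1 is a subunit of the pump that carries peptides into the endoplasmic reticulum. Per length, B2m stood first of the list in all 5 groups, with 624 ± 86.0 FPKM in adenosine and 233 ± 28.2 FPKM in DMSO libraries of batch 1, and 756 ± 39.8 FPKM in adenosine, 587 ± 39.6 FPKM in AMP and 284 ± 5.49 FPKM in DMSO libraries of batch 2 (SD, n = 3 each). In batch 1, H2-K1 (ENSMUSG00000061232, GRCm38 chromosome 17, 33996017 to 34000333) had 1203, 1155 and 1033 CPM (counts scaled to a common library total) in the adenosine libraries, against 335, 348 and 353 CPM in the DMSO libraries. In batch 2 it had 859, 850.1 and 955 CPM with adenosine and 587, 568 and 587 CPM with AMP, against 165, 163 and 176 CPM with DMSO. No treated library overlapped a DMSO library, and the 3 AMP libraries lay below the 3 adenosine libraries. The log2 fold change of H2-K1 was 1.52 (SE 0.11, adjusted p = 1.27e-06) in batch 1, 2.09 (SE 0.07, adjusted p = 6.66e-12) with adenosine in batch 2 and 1.52 (SE 0.07, adjusted p = 2.35e-10) with AMP.

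H2-D1 (ENSMUSG00000073411, GRCm38 chromosome 17, 35262730 to 35267499) had 847, 789.8 and 737 CPM with adenosine and 299.7, 338 and 331 CPM with DMSO in batch 1. In batch 2, H2-D1 had 449.9, 512 and 503 CPM with adenosine and 409.6, 422 and 427 CPM with AMP, against 189, 174 and 177 CPM with DMSO. The treated and DMSO libraries were again apart in both batches, with log2 fold changes of 1.10 (SE 0.11, adjusted p = 1.52e-05) in batch 1, 1.13 (SE 0.07, adjusted p = 9.00e-10) with adenosine in batch 2 and 0.95 (SE 0.07, adjusted p = 8.26e-09) with AMP. The 2 heavy chain genes are close in sequence, and reads could have been split between them or with other class I genes, so the share of each is uncertain. B2m (ENSMUSG00000060802, GRCm38 chromosome 2, 122147686 to 122153083), whose promoter holds 1 ISRE match, had 499, 671 and 579 CPM with adenosine and 182, 217 and 166 CPM with DMSO in batch 1. In batch 2 its libraries had 667, 696 and 763 CPM with adenosine and 525, 563 and 525 CPM with AMP, against 226, 213 and 211 CPM with DMSO. B2m groups did not overlap, and its log2 fold change was 1.43 (SE 0.14, adjusted p = 7.69e-06) in batch 1, 1.40 (SE 0.07, adjusted p = 3.01e-10) with adenosine in batch 2 and 1.05 (SE 0.07, adjusted p = 9.53e-09) with AMP. Tap1 had 35.8, 46.5 and 37.3 CPM with adenosine and 32.9, 41.9 and 35 CPM with DMSO in batch 1, groups that overlapped. Batch 2 libraries had 24.7, 23.9 and 26.0 CPM with adenosine, 26.0, 24.8 and 27.2 CPM with AMP and 18.2, 21.6 and 18.2 CPM with DMSO. The DMSO libraries were lowest in batch 2, yet after TMM scaling the log2 fold change of Tap1 was 0.05 (SE 0.12, adjusted p = 0.703) with adenosine and 0.16 (SE 0.12, adjusted p = 0.250) with AMP. With library totals in place of TMM it was called in batch 2, at 0.36 with adenosine (adjusted p = 0.0168) and 0.43 with AMP (adjusted p = 0.00638).

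**Figure D3:**
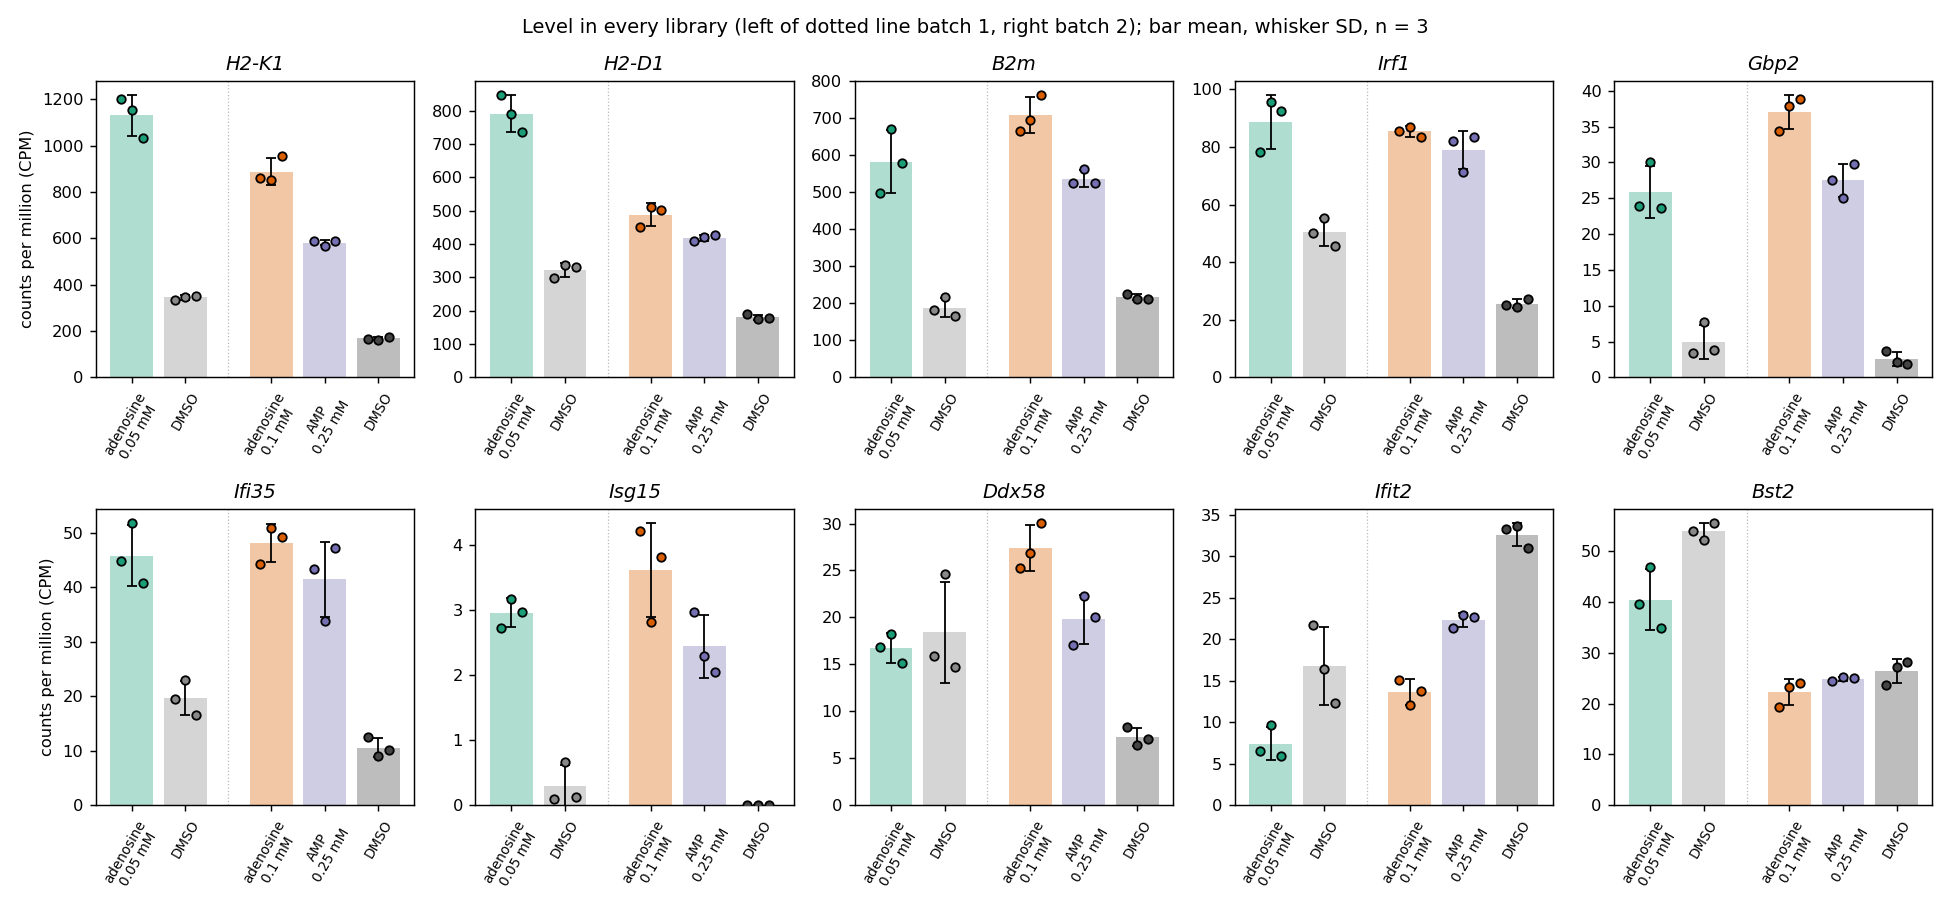
Level in CPM of 10 genes in every library (points), with the mean (bar) and SD (whisker) of the 3 libraries of each group, each panel on its own linear axis from 0. H2-K1, H2-D1, B2m, Irf1, Gbp2, Ifi35 and Isg15 are higher in all treated libraries than in the DMSO libraries of their batch, Ddx58 is so in batch 2 only, and Ifit2 is lower in all.

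Of the 6 sensor genes, 1 rose in batch 1, 4 rose with adenosine in batch 2 and 3 rose with AMP, and none fell, where 19.6%, 34.9% and 33.7% of all tested genes were called higher. The batch 1 count is near that background. Zbp1 codes for a sensor of Z-form nucleic acids, Ddx58 for the RNA sensor RIG-I, Ifih1 for the long double-stranded RNA sensor MDA5, and Eif2ak2 for the kinase PKR, which halts translation on double-stranded RNA. Zbp1 was low, with 3.81, 2.92 and 3.08 CPM with adenosine and 0.385, 0.665 and 0.678 CPM with DMSO in batch 1. The libraries of batch 2 had 2.15, 0.547 and 2.80 CPM with adenosine and 1.53, 1.41 and 1.37 CPM with AMP, against 0.282, 0.0871 and 0 CPM with DMSO. Treated and DMSO libraries did not overlap, although 1 adenosine library of batch 2 was well below the other 2. Fitted log2 fold changes of Zbp1 were 2.31 (SE 0.51, adjusted p = 0.00336) in batch 1, 3.42 (SE 0.76, adjusted p = 8.51e-04) with adenosine in batch 2 and 3.12 (SE 0.78, adjusted p = 0.00250) with AMP.

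The RIG-I gene Ddx58 had 16.9, 18.3 and 15.1 CPM with adenosine and 15.9, 24.6 and 14.7 CPM with DMSO in batch 1, groups that overlapped. In batch 2 Ddx58 had 25.3, 26.8 and 30.1 CPM with adenosine and 17.0, 22.3 and 20.1 CPM with AMP, against 8.31, 6.44 and 7.09 CPM with DMSO, and every treated library was above the DMSO libraries. Its log2 fold change was -0.33 (SE 0.22, adjusted p = 0.272) in batch 1, 1.6 (SE 0.15, adjusted p = 1.24e-07) with adenosine in batch 2 and 1.17 (SE 0.15, adjusted p = 5.54e-06) with AMP. Ifih1 had 8.99, 13.4 and 10.2 CPM with adenosine and 4.81, 7.44 and 6.11 CPM with DMSO in batch 1. It had, in batch 2, 17.4, 18.6 and 15.1 CPM with adenosine and 14, 14.3 and 15.3 CPM with AMP, against 5.77, 6.44 and 3.90 CPM with DMSO. The Ifih1 groups did not overlap in either batch, but the log2 fold change of 0.64 (SE 0.28, adjusted p = 0.0851) in batch 1 missed the threshold, while 1.36 (SE 0.18, adjusted p = 7.85e-06) with adenosine and 1.17 (SE 0.19, adjusted p = 5.06e-05) with AMP in batch 2 passed it. With library totals Ifih1 was called in batch 1 too (0.83, adjusted p = 0.0274). Eif2ak2 stood at 1.91 to 6.78 CPM over all libraries and rose with adenosine in batch 2 by 0.71 on the log2 scale (SE 0.26, adjusted p = 0.0230), a call lost without DMSO replicate 3 of batch 2 (0.49, adjusted p = 0.112) or adenosine replicate 3 of batch 2 (0.6, adjusted p = 0.0844). Trim25, the ubiquitin ligase linked to RIG-I signalling, had 67.8, 71.6 and 72.5 CPM with adenosine and 57.9, 58.1 and 51.5 CPM with DMSO in batch 1. In batch 2 it had 55.4, 60.8 and 57.6 CPM with adenosine, 54.0, 61.7 and 59.2 CPM with AMP and 44.3, 41.3 and 43.3 CPM with DMSO. All treated Trim25 libraries were above their DMSO libraries on the CPM scale, but the TMM-scaled log2 fold changes of 0.14, 0.12 and 0.17 were not called. With library totals they were 0.34, 0.43 and 0.44 and all called. Dhx58, which codes for the RIG-I relative LGP2, had at most 2.96 CPM in any library and was not called.

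Among the transcription factors, Irf1, Irf7 and Stat2 rose with adenosine in both batches, and Irf9 was called with AMP. IRF1 and IRF7 bind interferon promoters and interferon-stimulated genes, and STAT2 and IRF9 are partners in the complex that binds the ISRE. Irf1, whose promoter holds a GAS match, had 78.1, 95.4 and 92.6 CPM with adenosine and 50.2, 55.4 and 45.6 CPM with DMSO in batch 1. In batch 2 Irf1 had 85.6, 87.0 and 83.5 CPM with adenosine and 82.2, 71.5 and 83.5 CPM with AMP, against 25.1, 24.3 and 27.2 CPM with DMSO. The lowest treated library was above the highest DMSO library in each batch. The log2 fold change of Irf1 was 0.62 (SE 0.13, adjusted p = 0.00254) in batch 1, 1.43 (SE 0.09, adjusted p = 2.42e-09) with adenosine in batch 2 and 1.36 (SE 0.09, adjusted p = 6.88e-09) with AMP. Irf7 was near 0 in DMSO libraries, with 1.91, 2.49 and 1.42 CPM with adenosine and 0.288, 0.0665 and 0.617 CPM with DMSO in batch 1. Batch 2 libraries had 3.14, 4.22 and 2.12 CPM with adenosine and 2.70, 2.46 and 3.84 CPM with AMP, against 0.422, 0.261 and 0 CPM with DMSO. The Irf7 groups did not overlap, and its log2 fold change was 2.35 (SE 0.70, adjusted p = 0.0185) in batch 1, 3.40 (SE 0.56, adjusted p = 6.06e-05) with adenosine in batch 2 and 3.36 (SE 0.57, adjusted p = 8.99e-05) with AMP. The batch 1 call of Irf7 was lost without adenosine replicate 1 or 2 or DMSO replicate 1 or 2, with log2 fold changes of 1.89 to 2.32 and adjusted p of 0.0560 to 0.0845.

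Stat2 had 21.8, 20.4 and 18.1 CPM with adenosine and 9.04, 12.9 and 9.50 CPM with DMSO in batch 1. The libraries of batch 2 had 15.4, 16.7 and 20.9 CPM with adenosine and 9.99, 13.0 and 12.3 CPM with AMP, against 6.13, 8.71 and 8.68 CPM with DMSO. All treated Stat2 libraries were above those with DMSO, and the log2 fold change was 0.75 (SE 0.21, adjusted p = 0.0150) in batch 1, 0.87 (SE 0.18, adjusted p = 5.64e-04) with adenosine in batch 2 and 0.32 (SE 0.19, adjusted p = 0.141) with AMP. With library totals Stat2 was called with AMP too (0.59, adjusted p = 0.0116). The batch 1 call was lost without adenosine replicate 1 (0.65, adjusted p = 0.0589) or DMSO replicate 1 (0.64, adjusted p = 0.0599). Irf9 had 7.70, 10.0 and 10.3 CPM with adenosine and 7.07, 9.37 and 8.02 CPM with DMSO in batch 1, groups that overlapped. In batch 2 Irf9 had 8.67, 7.66 and 7.71 CPM with adenosine, 9.99, 10.9 and 12.1 CPM with AMP and 5.70, 5.92 and 2.87 CPM with DMSO. In the fit its log2 fold change came to 0.92 (SE 0.23, adjusted p = 0.00257) with AMP and 0.42 (SE 0.23, adjusted p = 0.119) with adenosine in batch 2, and the direct difference of AMP from adenosine, 0.49 (SE 0.22, adjusted p = 0.222), did not pass the threshold. Irf9 libraries with adenosine in batch 2 lay above those with DMSO, and with library totals it was called there too (0.73, adjusted p = 0.0107).

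The genes of ISG15 and of the protease that removes it rose in all comparisons with DMSO. ISG15 is a ubiquitin-like protein that is attached to other proteins, and USP18 cuts it off and also blocks signalling from the type I interferon receptor. Isg15 (ENSMUSG00000035692, GRCm38 chromosome 4, 156199424 to 156200818), with its 3 ISRE matches, had 2.72, 3.17 and 2.96 CPM with adenosine and 0.0962, 0.665 and 0.123 CPM with DMSO in batch 1. It had, in batch 2, 51, 36 and 45 counts with adenosine and 33, 26 and 24 counts with AMP, against 0 counts in each of the 3 DMSO libraries. Against a floor of 3 counts over the DMSO group, that is at least 45.8-fold higher with adenosine and at least 30.9-fold higher with AMP, bounds that cover counting error only. The batch 1 log2 fold change was 3.17 (SE 0.69, adjusted p = 0.00315), and the edgeR adjusted p in batch 2 was 8.22e-07 with adenosine and 3.69e-06 with AMP. Usp18 had 3.34, 4.54 and 4.02 CPM with adenosine and 0.481, 1.40 and 1.54 CPM with DMSO in batch 1. In batch 2 it had 4.38, 4.14 and 4.57 CPM with adenosine and 1.26, 1.94 and 3.24 CPM with AMP, against 0.211, 0.610 and 0.558 CPM with DMSO. The Usp18 groups did not overlap with DMSO, and its log2 fold change was 1.61 (SE 0.50, adjusted p = 0.0225) in batch 1, 2.95 (SE 0.43, adjusted p = 1.92e-05) with adenosine in batch 2 and 1.96 (SE 0.46, adjusted p = 0.00154) with AMP. The batch 1 call of Usp18 was lost without adenosine replicate 2 or 3 or DMSO replicate 1, at 1.22 to 1.58 with adjusted p of 0.0599 to 0.0803.

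The antiviral effectors were called in both directions. Of 15 genes, 9 could be tested in batch 1 (3 rose and 2 fell). In batch 2, 8 could be tested (5 rose and 2 fell, with adenosine as with AMP). Over all tested genes 19.6%, 34.9% and 33.7% were called higher in the 3 comparisons, and 19.5%, 34.5% and 31.8% lower. The counts of falls are near or below those shares. Ifi35, Xaf1 and Rsad2 rose in all 3 comparisons with DMSO, and Oasl2 and Ifi27 rose with both compounds in batch 2. IFI35 is an interferon-induced leucine zipper protein, XAF1 opposes the apoptosis inhibitor XIAP, RSAD2 is viperin, which makes a chain-terminating nucleotide, and Oasl2 belongs to the oligoadenylate synthetase family. Ifi35 had 44.7, 51.8 and 40.8 CPM with adenosine and 19.6, 22.9 and 16.5 CPM with DMSO in batch 1. Batch 2 libraries had 44.2, 50.9 and 49.3 CPM with adenosine and 43.3, 33.8 and 47.2 CPM with AMP, against 12.5, 9.06 and 10.0 CPM with DMSO. The groups were apart in both batches, with log2 fold changes of 1.03 (SE 0.17, adjusted p = 5.32e-04) in batch 1, 1.88 (SE 0.14, adjusted p = 9.93e-09) with adenosine in batch 2 and 1.70 (SE 0.14, adjusted p = 4.39e-08) with AMP. Xaf1 had 7.56, 6.15 and 6.69 CPM with adenosine and 1.15, 2.46 and 1.42 CPM with DMSO in batch 1. In batch 2 Xaf1 had 7.35, 9.62 and 7.71 CPM with adenosine and 6.66, 7.66 and 8.11 CPM with AMP, against 1.41, 0.958 and 0.637 CPM with DMSO. Its treated libraries were all above DMSO, and the log2 fold change was 1.84 (SE 0.39, adjusted p = 0.00250) in batch 1, 2.70 (SE 0.27, adjusted p = 3.44e-07) with adenosine in batch 2 and 2.61 (SE 0.28, adjusted p = 7.70e-07) with AMP.

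Ifi27, a gene for a mitochondrial and nuclear envelope protein, had 57.1, 67.9 and 44.0 CPM with adenosine and 53.6, 65.6 and 46.8 CPM with DMSO in batch 1. The libraries of batch 2 had 57.6, 74.0 and 74.8 CPM with adenosine and 62.3, 76.1 and 63.2 CPM with AMP, against 33.6, 36.1 and 32.2 CPM with DMSO. The groups overlapped in batch 1 and were apart in batch 2, with log2 fold changes of -0.17 (SE 0.17, adjusted p = 0.478) in batch 1, 0.71 (SE 0.11, adjusted p = 3.59e-05) with adenosine in batch 2 and 0.72 (SE 0.11, adjusted p = 3.88e-05) with AMP. Rsad2 stayed under 4 CPM in every library, and its log2 fold change was 1.89 (SE 0.66, adjusted p = 0.0367) in batch 1, 1.51 (SE 0.49, adjusted p = 0.0124) with adenosine in batch 2 and 1.27 (SE 0.50, adjusted p = 0.0360) with AMP. Single libraries decided the Rsad2 calls. In batch 1 it was lost without adenosine replicate 2 or 3 or DMSO replicate 2 or 3 (1.46 to 1.79, adjusted p of 0.0926 to 0.115), in batch 2 with adenosine without DMSO replicate 3 (1.08, adjusted p = 0.0536), and with AMP without DMSO replicate 3 or AMP replicate 1 or 3 (0.84 to 1.20, adjusted p of 0.0824 to 0.139). Oasl2 had log2 fold changes of 0.90 (SE 0.43, adjusted p = 0.115) in batch 1, 1.86 (SE 0.47, adjusted p = 0.00261) with adenosine in batch 2 and 1.96 (SE 0.47, adjusted p = 0.00193) with AMP, and Cmpk2, the neighbour of Rsad2 and a mitochondrial nucleotide kinase gene, was not called in any comparison.

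Ifit2 and Bst2 fell in all 3 comparisons with DMSO, against the direction of the other called genes. IFIT2 is a tetratricopeptide protein that binds RNA and hinders translation, and BST2 (tetherin) holds budding virus at the cell surface. Ifit2 (ENSMUSG00000045932, GRCm38 chromosome 19, 34550694 to 34576419) had 6.54, 9.69 and 5.98 CPM with adenosine and 21.7, 16.4 and 12.3 CPM with DMSO in batch 1. It had, in batch 2, 15.1, 12 and 13.7 CPM with adenosine and 21.3, 23 and 22.7 CPM with AMP, against 33.2, 33.6 and 31.0 CPM with DMSO. No treated Ifit2 library reached its DMSO range, and the AMP libraries lay between the adenosine and the DMSO libraries. Fitted log2 fold changes were -1.38 (SE 0.27, adjusted p = 0.00167) in batch 1, -1.56 (SE 0.13, adjusted p = 3.00e-08) with adenosine in batch 2 and -0.81 (SE 0.12, adjusted p = 3.04e-05) with AMP. Bst2 (ENSMUSG00000046718, GRCm38 chromosome 8, 71534264 to 71537437), whose promoter holds both motifs, had 39.6, 47.0 and 35 CPM with adenosine and 54.0, 52.3 and 55.6 CPM with DMSO in batch 1. In batch 2 Bst2 had 19.4, 23.3 and 24.1 CPM with adenosine, 24.5, 25.2 and 25.1 CPM with AMP and 23.7, 27.3 and 28.2 CPM with DMSO. Bst2 groups were apart in batch 1 but overlapped on the CPM scale in batch 2. Its TMM-scaled log2 fold change was -0.61 (SE 0.15, adjusted p = 0.00544) in batch 1, -0.55 (SE 0.12, adjusted p = 7.15e-04) with adenosine in batch 2 and -0.35 (SE 0.12, adjusted p = 0.0180) with AMP. With library totals the batch 2 values were -0.24 with adenosine (adjusted p = 0.104) and -0.08 with AMP (adjusted p = 0.5997), and the AMP call was also lost without DMSO replicate 2 or 3 or AMP replicate 3 (-0.31 to -0.29, adjusted p of 0.0579 to 0.0799). The Ifit genes are close relatives, so reads may have been split between them.

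The guanylate-binding protein genes, neighbours on chromosome 3, gave some of the largest rises of the list. These interferon-induced GTPases coat the membranes of invading microbes. Gbp2 (ENSMUSG00000028270, GRCm38 chromosome 3, 142620602 to 142638008) had 24.0, 30.0 and 23.7 CPM with adenosine and 3.37, 7.71 and 3.76 CPM with DMSO in batch 1. In batch 2 it had 34.4, 37.9 and 38.8 CPM with adenosine and 27.5, 25.1 and 29.8 CPM with AMP, against 3.66, 2.18 and 1.83 CPM with DMSO. The lowest treated Gbp2 library was at least 3 times the highest DMSO library of its batch, and the log2 fold change was 2.21 (SE 0.30, adjusted p = 1.12e-04) in batch 1, 3.52 (SE 0.18, adjusted p = 2.97e-10) with adenosine in batch 2 and 3.13 (SE 0.19, adjusted p = 1.78e-09) with AMP. Gbp3 (chromosome 3, 142560026 to 142573209) had 5.04, 7.64 and 5.09 CPM with adenosine and 1.35, 0.532 and 0.185 CPM with DMSO in batch 1. In batch 2 Gbp3 had 6.28, 5.94 and 8.98 CPM with adenosine and 4.95, 4.31 and 5.21 CPM with AMP, against 0.211, 0.958 and 0.478 CPM with DMSO. Its groups did not overlap, and the log2 fold change was 2.86 (SE 0.57, adjusted p = 0.00166) in batch 1, 3.41 (SE 0.38, adjusted p = 1.03e-06) with adenosine in batch 2 and 2.90 (SE 0.39, adjusted p = 1.03e-05) with AMP. Gbp7 (chromosome 3, 142530342 to 142550149) had a mean of 5.07 ± 1.62 CPM with adenosine and 2.78 ± 1.07 CPM with DMSO in batch 1, and 7.23 ± 2.18 CPM with adenosine, 6.41 ± 1.40 CPM with AMP and 1.56 ± 0.148 CPM with DMSO in batch 2 (SD, n = 3 each). The log2 fold change of Gbp7 was 0.67 (SE 0.42, adjusted p = 0.229) in batch 1, 1.89 (SE 0.27, adjusted p = 1.63e-05) with adenosine in batch 2 and 1.76 (SE 0.28, adjusted p = 4.69e-05) with AMP. Reads from near-identical stretches of these paralogs may have been shared.

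Parp9, Parp14 and Dtx3l, neighbours on chromosome 16, rose with both compounds in batch 2, and 0 of the 3 were called in batch 1. Over all tested genes 19.6% were called higher in batch 1, 34.9% with adenosine in batch 2 and 33.7% with AMP. PARP9 and the ubiquitin ligase DTX3L form a complex tied to interferon-driven transcription, and PARP14 is a mono-ADP-ribosyltransferase. Parp9 had 6.20, 10.0 and 6.04 CPM with adenosine and 8.46, 18.0 and 7.46 CPM with DMSO in batch 1. In batch 2 Parp9 had 11.7, 13.7 and 11.3 CPM with adenosine and 12.1, 10.4 and 10.2 CPM with AMP, against 5.70, 5.92 and 5.58 CPM with DMSO. The batch 1 groups overlapped, with DMSO replicate 2 highest, while the batch 2 groups were apart. Fitted log2 fold changes of Parp9 were -0.80 (SE 0.35, adjusted p = 0.0874) in batch 1, 0.78 (SE 0.17, adjusted p = 8.37e-04) with adenosine in batch 2 and 0.66 (SE 0.18, adjusted p = 0.00381) with AMP. Parp9 was called lower in batch 1 without its DMSO replicate 3 (-1.02, adjusted p = 0.0433) and with no filter on low counts (-0.84, adjusted p = 0.0237). Parp14 had 9.40, 14.6 and 12.8 CPM with adenosine and 9.18, 14.9 and 6.97 CPM with DMSO in batch 1. Batch 2 libraries had 16.5, 13.1 and 14 CPM with adenosine and 12.9, 13.3 and 15.5 CPM with AMP, against 1.76, 6.10 and 3.90 CPM with DMSO. Its log2 fold change was 0.06 (SE 0.29, adjusted p = 0.900) in batch 1, 1.61 (SE 0.29, adjusted p = 1.40e-04) with adenosine in batch 2 and 1.58 (SE 0.29, adjusted p = 2.09e-04) with AMP. Dtx3l had 9.26, 21.1 and 21.1 CPM with adenosine and 8.56, 13.6 and 9.68 CPM with DMSO in batch 1, groups that overlapped. The libraries of batch 2 had 12.4, 15.4 and 12.8 CPM with adenosine and 11.3, 15.3 and 13.9 CPM with AMP, against 7.46, 5.75 and 6.53 CPM with DMSO. The log2 fold change of Dtx3l was 0.50 (SE 0.30, adjusted p = 0.217) in batch 1, a value called without adenosine replicate 1 (0.76, adjusted p = 0.0373), 0.73 (SE 0.17, adjusted p = 0.00143) with adenosine in batch 2 and 0.76 (SE 0.17, adjusted p = 0.00113) with AMP. Parp9 and Dtx3l overlap head to head on opposite strands, and counting used no strand, so their reads cannot be told apart there.

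The remaining 7 genes, Ifit1, Ifit3, Mx1, Mx2, Rtp4, Ifi44 and Oas1a, were in the batch 1 table alone and had at most 58 counts over its 6 libraries. Mx2, an antiviral GTPase gene, had 7, 8 and 7 counts in the adenosine libraries and 0 in each DMSO library, at least 8.01-fold higher against a floor of 3 counts over the group, and it was below the filter for the test. Ifit1 was the only one of the 7 that passed the filter, with 1.23, 0.497 and 1.24 CPM with adenosine and 0, 0.731 and 0 CPM with DMSO. Its log2 fold change of 1.90 (SE 1.09, adjusted p = 0.187) was not called, but without DMSO replicate 2 of batch 1 its adjusted p was 0.00689, when both remaining DMSO libraries held 0 counts. In the authors' deposited table of batch 1, which codes its fold changes as DMSO over adenosine, 15 of the 37 genes were higher with adenosine at an adjusted p under 0.05, 2 were lower, 18 were not called and 2 had no adjusted p. Mx2 was the gene called there that was not tested here.

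The size of the adenosine effect was then compared between the batches, at 0.1 mM in batch 2 and 0.05 mM in batch 1. Of the list, 30 genes were tested in both batches. All 14 genes that rose in batch 1 also rose in batch 2, and Ifit2 and Bst2 fell in both. A further 9 genes were called higher in batch 2 alone, and 5 were called in neither. Over all tested genes 19.6% were called higher in batch 1 and 34.9% with adenosine in batch 2. How many of all genes shared a call between the batches was not counted. The interaction of treatment with batch was called for 9 of 30 genes, all with a larger fold change in batch 2, against 11.9% of 13052 genes (6.27% higher and 5.65% lower in batch 2). The median difference over the 30 genes was 0.72 on the log2 scale. Ddx58 differed by 1.93 (SE 0.26, adjusted p = 3.76e-04), Parp9 by 1.58 (SE 0.40, adjusted p = 0.0148), Parp14 by 1.55 (SE 0.45, adjusted p = 0.0307) and Gbp2 by 1.32 (SE 0.36, adjusted p = 0.0227). Ifi27 differed by 0.88 (SE 0.21, adjusted p = 0.0127), Ifi35 by 0.86 (SE 0.21, adjusted p = 0.0136), Irf1 by 0.82 (SE 0.15, adjusted p = 0.00214) and H2-K1 by 0.58 (SE 0.12, adjusted p = 0.00572). Isg15 was also called (adjusted p = 0.0309), but its DMSO libraries of batch 2 held 0 counts, so the size of its difference is not given as a fold. B2m, H2-D1 and Ifit2 differed by -0.03 (interval -0.33 to 0.28), 0.04 (interval -0.21 to 0.28) and -0.18 (interval -0.77 to 0.40), where intervals are at 95%.

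DMSO levels were unequal between the batches for genes with large differences, and also for genes whose difference was not called. Ddx58 averaged 7.28 ± 0.947 CPM in DMSO libraries of batch 2 and 18.4 ± 5.38 CPM in those of batch 1. Parp9 averaged 5.73 ± 0.175 CPM in DMSO libraries of batch 2 and 11.3 ± 5.82 CPM in those of batch 1. Parp14 averaged 3.92 ± 2.17 CPM in DMSO libraries of batch 2 and 10.3 ± 4.09 CPM in those of batch 1 (SD, n = 3 each). Of the genes not called, H2-D1 averaged 180 ± 7.90 CPM in DMSO libraries of batch 2 and 323 ± 20.4 CPM in those of batch 1. Ifit2 went the other way, with 32.6 ± 1.42 CPM in batch 2 and 16.8 ± 4.72 CPM in batch 1. The part of DMSO levels in the differences was not tested. The 2 tables were made separately, and dose and batch cannot be told apart. Leaving out 1 library ended 3 of the interaction calls. That of Gbp2 was lost without DMSO replicate 2 of batch 1 or DMSO replicate 2 or 3 of batch 2 (0.89 to 1.25). That of Parp14 was lost without adenosine replicate 1 or 3 or DMSO replicate 1 or 3 of batch 2, or adenosine replicate 1 or DMSO replicate 2 of batch 1 (1.19 to 1.59). That of Isg15 was lost without adenosine replicate 1 or 3 or any DMSO replicate of batch 2, or DMSO replicate 2 of batch 1 (adjusted p of 0.0502 to 0.0955).

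**Figure D4:**
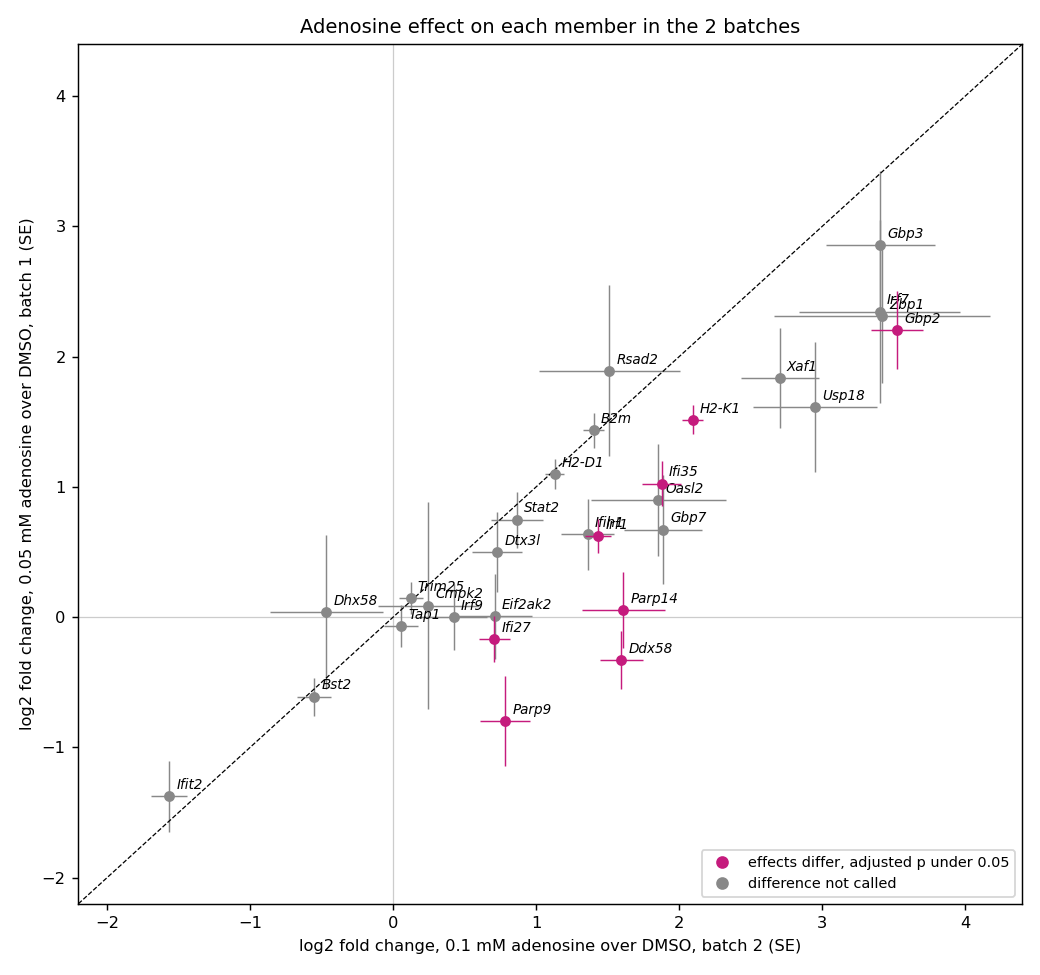
Log2 fold change of each gene with 0.1 mM adenosine in batch 2 (horizontal) and 0.05 mM adenosine in batch 1 (vertical), each over its own DMSO libraries, with standard errors and the line of equal change dashed. The 8 coloured genes differed between batches and lie below the line; Isg15 is left out because its batch 2 DMSO libraries held 0 counts.

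AMP and adenosine differed past the threshold for 3 genes of the list, at doses that differed (0.25 mM AMP and 0.1 mM adenosine). In the direct comparison 1 of 30 genes was higher with AMP, 2 were lower and 27 were not called, against 6.51% of 13063 genes called (4.52% higher and 2.00% lower). The median difference was -0.15 on the log2 scale, and libraries did not overlap with AMP higher for 3 genes (9.97% of all tested genes) and with AMP lower for 11 (11.8%). H2-K1 was lower with AMP by a log2 difference of -0.57 (SE 0.07, adjusted p = 2.23e-04) and B2m by -0.36 (SE 0.07, adjusted p = 0.00641). Ifit2, which fell less with AMP, was higher by 0.75 (SE 0.13, adjusted p = 0.00217). These 3 calls kept their direction and passed the threshold when any 1 library was left out. H2-D1 differed by -0.18 (SE 0.06, adjusted p = 0.121), a value that passed in DESeq2 (adjusted p = 0.0492). Irf1, Ifi35 and Ifi27 gave differences of -0.07 (interval -0.25 to 0.11), -0.18 (interval -0.44 to 0.09) and 0.01 (interval -0.22 to 0.24). Wider intervals were left for the low genes, such as -0.89 to 0.81 for Irf7 and -1.41 to 0.81 for Zbp1. Stat2 and Eif2ak2 were called over DMSO with adenosine and not with AMP, and Irf9 with AMP and not with adenosine, but none of the 3 differed between AMP and adenosine past the threshold in this fit (Stat2 -0.54, Eif2ak2 -0.35 and Irf9 0.49).

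The interferon genes themselves were close to absent. The 10 ligand genes examined, Ifnb1 and Ifng among them, held 14 counts in the 3 adenosine libraries and 5 counts in the 3 DMSO libraries of batch 1, Ifnb1 had 0 in all 6, and none was in the batch 2 table. Of 9 tested genes in the list of interferon receptors and their kinases, 2 rose and 7 were not called in each comparison with DMSO. Over all tested genes 19.6%, 34.9% and 33.7% were called higher, so these counts are near or below that background. In batch 1, Ifnar1 (0.35) and Ifngr2 (0.36) rose on the log2 scale. The call of Ifnar1 was lost without any 1 of the 6 libraries (adjusted p of up to 0.152), and that of Ifngr2 without any but adenosine replicate 1 (up to 0.120). Of the genes called with AMP, 1 is not reported here. In batch 2 Tyk2 rose with adenosine (0.33) and with AMP (0.48) and Jak1 with adenosine (0.23). The adenosine call of Tyk2 was lost without adenosine replicate 2 or DMSO replicate 1 or 2 (0.26 to 0.32, adjusted p of 0.0589 to 0.0942). Ifnar2 had log2 fold changes of 0.37 in batch 1, 0.18 with adenosine in batch 2 and 0.26 with AMP, none of them called, and Ifngr1 -0.04, -0.18 and 0.14, not called either. With library totals Ifnar2 was called in all 3 (0.57, 0.49 and 0.52), Jak1 in batch 1 and with AMP too (0.42 and 0.36) and Ifngr1 with AMP (0.40). Ifnar1 and Ifngr2 were not called in batch 2 in the main fit, but library totals called both there. Ifnar1 then had 0.42 with adenosine and 0.33 with AMP, and Ifngr2 0.31 and 0.42. At a mean of at least 10 CPM, Ifnar1 was called with adenosine in batch 2 too (0.18, adjusted p = 0.0398). Ifngr1 was higher with AMP than with adenosine (0.32, adjusted p = 0.0317), a call lost without any adenosine replicate or AMP replicate 1 or 2 (0.26 to 0.33, adjusted p of 0.0523 to 0.135) and with library totals (0.27, adjusted p = 0.0706), limma on FPKM (0.29, adjusted p = 0.0638) or a fit on the 2 groups alone (0.31, adjusted p = 0.0639).

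Genes that link nucleic acid sensing to interferon induction were called at about the share of all genes (39.2%, 69.4% and 65.6%) and in both directions. Of 10 tested, 1 rose and 3 fell in batch 1, 3 rose and 4 fell with adenosine in batch 2, and 3 rose and 4 fell with AMP. Cgas, the gene for the cytosolic DNA sensor cGAS, averaged 7.69 ± 0.776 CPM with adenosine and 13.5 ± 2.03 CPM with DMSO in batch 1. In batch 2 it averaged 5.0 ± 1.53 CPM with adenosine and 6.74 ± 1.83 CPM with AMP, against 16.6 ± 1.92 CPM with DMSO (SD, n = 3 each). Its log2 fold change was -1.0 in batch 1, -2.03 with adenosine in batch 2 and -1.57 with AMP. Tmem173, which codes for STING downstream of cGAS, fell by 0.6 in batch 1, 0.64 with adenosine in batch 2 and 0.35 with AMP on the log2 scale. The batch 1 and AMP calls of Tmem173 were lost with library totals (-0.40 and -0.08). Single libraries ended them too, in batch 1 adenosine replicate 1 or 3 or DMSO replicate 1 or 3 (-0.66 to -0.48, adjusted p of 0.0536 to 0.116), and in the AMP comparison AMP replicate 1 or 3 or DMSO replicate 1 or 2 (-0.36 to -0.28, adjusted p of 0.0599 to 0.131). The AMP call was also lost at a mean of at least 10 CPM (-0.27, adjusted p = 0.0839). Mavs, the adaptor of RIG-I and MDA5, fell by 0.51 with adenosine and 0.50 with AMP in batch 2, calls that library totals ended (-0.20 and -0.24). Myd88, the adaptor of Toll-like receptors, rose by 0.70 in batch 1, 0.86 with adenosine in batch 2 and 0.92 with AMP. Rnf135, which codes for a ubiquitin ligase acting on RIG-I, rose by 0.85 with adenosine and 0.71 with AMP in batch 2. Those calls were lost without adenosine replicate 2 or DMSO replicate 3 (0.58 and 0.61), and without AMP replicate 1 or 3 or DMSO replicate 3 (0.47 to 0.71). Of the 13 tested genes that restrain interferon signalling or clear its triggers, 4 rose and 2 fell in batch 1, and 6 rose and 3 fell with each compound in batch 2, which in all is also near the share of all genes called. Socs3, a feedback inhibitor of Janus kinases, rose by 1.01, 1.56 and 1.32 in the same order, and Socs1 by 1.70 with adenosine and 1.30 with AMP in batch 2. Subunits of RNase H2 parted, with Rnaseh2a at -0.78, -1.12 and -0.98 and Rnaseh2c at 0.91, 1.16 and 0.79, all called. Rnaseh2b fell by 0.76, 1.04 and 1.16. Adar, for the enzyme that edits adenosines in double-stranded RNA, rose by 0.79, 0.68 and 0.61.

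A further list of 63 interferon-stimulated genes outside the 37 was read alongside. In batch 1, 13 of 36 tested rose and 6 fell. In batch 2, 19 of 35 rose and 9 fell with adenosine, and 19 rose and 8 fell with AMP, against 19.6%, 34.9% and 33.7% of all genes higher and 19.5%, 34.5% and 31.8% lower. Nmi, the partner of IFI35, averaged 33.7 ± 3.43 CPM with adenosine and 9.06 ± 0.689 CPM with DMSO in batch 1, and 30.5 ± 2.42 CPM with adenosine, 32.3 ± 3.51 CPM with AMP and 4.03 ± 0.450 CPM with DMSO in batch 2 (SD, n = 3 each). In the fit its log2 fold change came to 1.70 in batch 1, 2.62 with adenosine in batch 2 and 2.74 with AMP. Parp10 rose by 0.96, 2.00 and 1.98, and the immunity-related GTPase genes rose as well, Irgm1 by 1.11, 1.59 and 1.24 and Irgm2 by 1.74, 2.80 and 2.47. Slfn9 fell most, to 1.14 ± 0.455 CPM with adenosine, against 40.1 ± 19.3 CPM with DMSO in batch 1. In batch 2 Slfn9 fell to 9.97 ± 4.71 CPM with adenosine and 9.41 ± 5.46 CPM with AMP, against 65.9 ± 5.15 CPM with DMSO (SD, n = 3 each). Ly6e, for a GPI-anchored surface protein, fell by 0.85, 1.36 and 0.89, and was higher with AMP than with adenosine (0.48, adjusted p = 0.00962), a call lost without AMP replicate 2 (0.38, adjusted p = 0.0511).

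Other genes of class I presentation gave 5 rises and 1 fall among 18 tested in batch 1, 9 rises and 5 falls with adenosine in batch 2, and 9 rises and 3 falls with AMP. The shares called in either direction are near those of all genes (39.2%, 69.4% and 65.6%). The immunoproteasome subunit gene Psmb8 rose by 1.03, 1.73 and 1.63 in the 3 comparisons, the first lost without adenosine replicate 2 (0.61, adjusted p = 0.176) or DMSO replicate 1 or 3 of batch 1 (0.88 and 0.91, adjusted p = 0.0794 and 0.0733). The peptide editor Tapbpl (TAPBPR) rose by 1.34, 2.03 and 1.73. Tapbp, for tapasin, rose by 0.72, 1.42 and 1.19. H2-T23, a non-classical class I gene, rose by 0.91, 2.10 and 2.14. H2-M3, another non-classical class I gene, fell by 1.37 in batch 1 and 0.83 with adenosine in batch 2 and had -0.45 with AMP, not called. The adenosine call of H2-M3 in batch 2 was lost with library totals (-0.52, adjusted p = 0.0510). Nlrc5, the transactivator of class I genes, had 1.29, 2.98 and 2.25 CPM with adenosine and 0.577, 1.73 and 1.48 CPM with DMSO in batch 1, where it was not called (0.6). It had, in batch 2, 3.06, 3.21 and 1.02 CPM with adenosine and 2.97, 2.46 and 4.61 CPM with AMP, against 0.775, 0.958 and 0.558 CPM with DMSO. Nlrc5 rose by 1.37 (SE 0.47, adjusted p = 0.0164) with adenosine and by 1.85 (SE 0.46, adjusted p = 0.00225) with AMP, and the adenosine call was lost without adenosine replicate 1 or 2 or DMSO replicate 3 (1.14 to 1.19, adjusted p of 0.0602 to 0.0629). Calr, a chaperone of class I folding, was lower with AMP than with adenosine (-0.61, adjusted p = 1.44e-04). Of 7 class II genes, 2 passed the filter and 1 of the 2 was called higher in each comparison with DMSO. H2-DMa was the one called with adenosine in batch 2 (1.47) and was not called in batch 1 (1.01) or with AMP (0.97).

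Markers of the labelled cell type were present, and sums over marker lists of other types differed between treated and DMSO libraries for some lists. Whether other cell types were present was not tested. The 10 satellite cell markers summed to 4294 to 5193 CPM with adenosine and 6729 to 6950.0 CPM with DMSO in batch 1, and to 3161 to 3850.0 CPM with adenosine, 3517 to 4265 CPM with AMP and 5443 to 5969 CPM with DMSO in batch 2. Of these 10, 7 were called lower in each comparison with DMSO, and 1 was called higher in batch 1 and 2 with each compound in batch 2. Their median log2 fold change was -0.84 in batch 1, -0.89 with adenosine in batch 2 and -0.71 with AMP. Over all tested genes 19.5%, 34.5% and 31.8% were called lower in the 3 comparisons, and 19.6%, 34.9% and 33.7% higher. The 16 leukocyte markers summed to 14.2 to 21.8 CPM with adenosine and 2.19 to 3.70 CPM with DMSO in batch 1, and most of that was Cd68, at 14.8, 11.1 and 12.7 CPM with adenosine and 2.16, 1.06 and 2.34 CPM with DMSO. The pan-leukocyte gene Ptprc had 1.23, 0.186 and 0.414 CPM with adenosine and 0, 0 and 0.0617 CPM with DMSO there, and Tyrobp, Cd3e and Cd52 were at 0 in all 6 libraries. In batch 2, 2 of the 16 were in the table, Cd68 and Csf1r, with sums of 12.1 to 15.7 CPM with adenosine and 12.3 to 16.3 CPM with AMP, against 1.65 to 3.31 CPM with DMSO. The 8 endothelial markers summed to 18.8 to 25.7 CPM with adenosine and 5.58 to 7.46 CPM with DMSO in batch 1. The 2 of them in the batch 2 table summed to 9.15 to 10.3 CPM with adenosine, 9.24 to 12.7 CPM with AMP and 2.00 to 5.26 CPM with DMSO. The 8 fibro-adipogenic markers summed to 307 to 388 CPM with adenosine and 333 to 432 CPM with DMSO in batch 1, and the 3 of them in the batch 2 table to 283 to 304 CPM with adenosine, 389 to 429 CPM with AMP and 321 to 397 CPM with DMSO. Most of that was Cd34, at a mean of 241 CPM with adenosine and 255 CPM with DMSO in batch 1. In batch 2 Cd34 averaged 228 CPM with adenosine, 345 CPM with AMP and 289 CPM with DMSO. The 8 smooth muscle and pericyte markers summed to 276 to 385 CPM with adenosine and 958 to 1205 CPM with DMSO in batch 1, and the 4 in the batch 2 table to 357 to 476 CPM with adenosine, 377 to 528 CPM with AMP and 1348 to 1605 CPM with DMSO. Of 5 tested in batch 1, 4 were called lower and 1 higher (log2 fold changes of -7.86 to 6.24). Of 4 tested in batch 2, 3 were lower and 1 higher with adenosine (-2.43 to 1.43). With AMP 3 were lower and 1 was not called (-2.03 to -0.49). Des, a muscle intermediate filament gene, is in both the satellite cell and the smooth muscle list and makes up most of the smooth muscle sum, at 367, 362 and 265 CPM with adenosine and 1056, 1122 and 909.9 CPM with DMSO in batch 1. In batch 2 Des had 345, 458 and 391 CPM with adenosine and 437, 507 and 361 CPM with AMP, against 1304, 1561 and 1442 CPM with DMSO. The leukocyte and endothelial sums were higher in all treated libraries than in the DMSO libraries of their batch, and the satellite cell and smooth muscle sums lower. The fibro-adipogenic sums overlapped between treated and DMSO libraries in batch 1. In batch 2 those with adenosine lay below DMSO, and those with AMP overlapped it. The part of these sums in the result was not tested. Cd34, Cd68 and Des were chosen for naming after their values were seen.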

How the data were processed

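RNA from 15 libraries (Smart-seq2 cDNA, not stranded) was sequenced. The authors deposited raw counts per gene, made with Trim Galore, STAR and featureCounts per the submitters' processing notes, and with featureCounts 1.6.4 on a GRCm38 annotation per the file headers for batch 1. The authors also deposited FPKM values for both batches, and for batch 1 a log2 fold change and an adjusted p-value, for which the submitters' notes name DESeq2. The batch 2 count table had been filtered before deposit (smallest gene total 101 counts), and its 43 lines with no gene name, 0.0589% of its counts, were left out. Libraries held between 14683346 and 20799588 counts (batch 1) and between 11107450 and 14201933 counts (batch 2), which sets the precision of low genes.

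Genes passing filterByExpr were tested with edgeR 4.0.16 (R 4.3.3), by the quasi-likelihood test with TMM scaling, a fit per batch and Benjamini-Hochberg adjustment over all tested genes, and a joint fit of both batches gave the difference of the adenosine effects. The procedure was tested on simulated data. CPM are counts over the library total without TMM, so their ratio can differ from a fitted fold change. Alternatives used DESeq2 1.42.0, limma 3.58.1 on log2(FPKM + 1), library totals, other filters, the replicate number as a block and each library left out. Same-numbered libraries deviated together with correlations of -0.07 to 0.13 in batch 1 and -0.08 to 0.34 in batch 2. Their medians were 0.04 and 0.12, against -0.02 and -0.09 for libraries of other numbers. The labels name no pairs, so numbers were not taken as pairs in the main fit. No library pair of a group agreed within sampling noise (chi-square per degree of freedom 3.54 to 34.4).

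The members and lists were chosen with earlier results of these data known. Library values are given for genes whose mean reached 10 CPM in any group, with a called difference between batches, or with the largest absolute log2 fold change of their role group in a comparison. Of each other list at most 4 genes per comparison are named, those called with the largest absolute log2 fold change and a mean of at least 5 CPM, plus the interferon receptor genes and Nlrc5, and 1 further gene that this rule names is not reported here. Promoters are from RefSeq, and gene coordinates are those of the deposited batch 1 table.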

Additional observations from a re-analysis of the deposited data

Results flagged for a closer look

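The adenosine effect differed between the batches, by the interaction of treatment with batch in edgeR's quasi-likelihood test, for 9 genes, each with a larger log2 fold change at 0.1 mM in batch 2 than at 0.05 mM in batch 1. The difference on the log2 scale was 1.93 for Ddx58, 1.58 for Parp9, 1.55 for Parp14 and 1.32 for Gbp2. It was 0.88 for Ifi27, 0.86 for Ifi35, 0.82 for Irf1 and 0.58 for H2-K1. For Isg15 the fitted value was 5.45, which depends on the prior count of the fit because the DMSO libraries of batch 2 held 0 counts, and it is no bound. With adenosine in batch 1 the log2 fold change of Ddx58, Parp9 and Ifi27 was below 0 and not called, and that of Parp14 was 0.06. Dose, batch and the making of the tables changed together and cannot be told apart.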

How the results depend on the processing

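Among the genes of the list, counts called higher moved with the filter: at a mean of at least 10 CPM, where fewer genes were tested, they were 7 in batch 1, 13 with adenosine in batch 2 and 12 with AMP, and the count lower with AMP was 1. Library totals in place of TMM gave 1 lower gene with adenosine and 1 with AMP in batch 2. Over all genes they gave 2891 lower with adenosine and 2605 with AMP in batch 2, and 335 lower in the difference between batches. With limma on FPKM, 376 of all genes were higher with AMP than with adenosine. Calr reversed with library totals, to 0.0803 with adenosine in batch 2.

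With each library left out, 11 to 13 genes of the list were higher and 2 to 3 lower in batch 1, 21 to 23 higher and 2 lower with adenosine in batch 2, and 21 to 22 higher and 1 to 2 lower with AMP. Between AMP and adenosine 1 was higher and 2 to 3 lower, and between batches 6 to 10 differed. Over all genes, the AMP and adenosine comparison gave 304 to 710 higher and 104 to 281 lower, and the difference between batches 522 to 1036 higher and 375 to 1029 lower. The cause was not tested. The replicate block uses the library numbers, and whether these mark pairs is not in the labels. With it, 14, 23 and 22 genes of the list were higher in batch 1, with adenosine and with AMP in batch 2, and 3, 2 and 2 lower. It called Parp9 lower in batch 1 (-0.74, adjusted p = 0.0448) and Stat2 lower with AMP than with adenosine (-0.54, adjusted p = 0.0413). Single libraries ended calls at low levels (Rsad2) and at higher ones (Ifnar1, Stat2, Bst2).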

Other observations

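3 genes outside the list were singled out after their values were seen. Uba7 codes for the enzyme that activates ISG15 for conjugation. It had 2.38, 2.98 and 1.89 CPM with adenosine and 0.962, 1.79 and 1.67 CPM with DMSO in batch 1, and the log2 fold change was 0.52 (SE 0.49, adjusted p = 0.421). In batch 2 Uba7 had 4.54, 8.99 and 3.98 CPM with adenosine and 2.88, 5.28 and 3.33 CPM with AMP, against 0.493, 0.174 and 0.319 CPM with DMSO. Its log2 fold change there was 3.77 (SE 0.47, adjusted p = 3.56e-06) with adenosine and 3.20 (SE 0.49, adjusted p = 3.49e-05) with AMP, and the difference of the adenosine effects between batches was 3.25 (SE 0.65, adjusted p = 0.00436). Ube2l6, for the enzyme that passes ISG15 on, averaged 14.9 ± 3.96 CPM with adenosine and 15.4 ± 4.23 CPM with DMSO in batch 1 (SD, n = 3 each), and its log2 fold changes of -0.24 in batch 1, 0.18 with adenosine in batch 2 and -0.18 with AMP were not called. Herc6, which codes for an ISG15 ligase in mice, fell by 1.27 with adenosine and 1.21 with AMP in batch 2 on the log2 scale. In batch 1 Herc6 had 5.04, 8.39 and 5.68 CPM with adenosine and 12.4, 7.31 and 9.25 CPM with DMSO, and its libraries overlapped, with a called log2 fold change of -0.80 (adjusted p = 0.0497).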
